A study of Caenorhabditis elegans with 12 samples.

Results

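Gene expression was compared between whole Caenorhabditis elegans raised on AO168=O at 10000 ng/g of agar and worms raised at 2000 ng/g, a 5-fold difference in dose. Of the 12 libraries in the study, 6 were compared, 3 at each dose, and all 16665 genes that passed a low-count filter were tested, out of 46987 features counted. AO168=O is the phosphate formed when the phosphite antioxidant AO168 of plastics is oxidised. Worms at both doses were of the Bristol N2 genotype, were placed on dosed plates as bleached eggs, fed Escherichia coli OP50 at 25 °C, and taken at the L4 stage after about 46 h. The remaining libraries are 3 at 400 ng/g and 3 controls without the compound, and plates of all 4 groups held 0.01% ethanol. Each library was poly(A) RNA from a pool of about 1000 worms, so differences between single worms and between tissues are not resolved. The series describes the replicates of a group as independent, and the labels put all 12 libraries in batch 1.

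L4 is the last larval stage: sperm are being made, the adult cuticle is being prepared, and yolk synthesis in the intestine starts afterwards. Genes of the pals family encode proteins with the ALS2CR12 signature. Most are quiet in healthy worms, and many are switched on together with ubiquitin ligase genes in the intracellular pathogen response, which infection by microsporidia or the Orsay virus and blocked protein breakdown set off. Another response known in this animal is the propionate shunt, an alternative route for breaking down propionate that is used when the vitamin B12-dependent route is short, with acdh-1 as its first enzyme gene.

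The 3 libraries at 10000 ng/g held 36897811 to 45382586 counts each, and those at 2000 ng/g 37199300 to 38911190. Marker genes of neurons (21 of 21), body wall muscle (22 of 22), pharynx (26 of 29), intestine (16 of 16) and germ line (27 of 27) were among the genes tested. Ribosomal RNA took 0.544 ± 0.084% of counts at 10000 ng/g and 0.381 ± 0.0212% at 2000 ng/g (n = 3, SD; exact two-sided permutation p = 0.1, the smallest that 3 libraries against 3 can give). The share was 0.682, 0.594 and 0.721% in the controls and 0.494, 0.694 and 0.564% at 400 ng/g. The libraries at 2000 ng/g, at 0.362, 0.378 and 0.404%, were thus the lowest of the study. Those at 10000 ng/g, at 0.503, 0.489 and 0.641%, overlapped with the controls. The median Spearman correlation of log2 CPM was 0.9885 over the 6 pairs of libraries within a dose and 0.9855 over the 9 pairs between the doses. Replicate 1 at 400 ng/g stood apart from its group, and it is in neither group compared but in the filter, the scaling and the estimate of spread: without it 52 genes were called higher and 27 lower at 10000 than at 2000 ng/g. Replicate 2 at 400 ng/g departed the other way. Its TMM scaling factor was the lowest of the 12 libraries, 0.849, where that of replicate 1 was the highest, 1.107. Its 50 most abundant genes took 18.4% of counts, the largest such share. In a set of cuticle genes described last, 10000 ng/g replicate 3 also stood apart. Levels are given in CPM, the counts of a gene scaled to the size of its library, which are not corrected for gene length and are compared between libraries only.

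Between the doses 8 genes rose and none fell. The genes that rose were B0507.8, ddn-1, F42C5.3 and pals-6, all 4 with the ALS2CR12 signature, the collagen gene col-101, the C-type lectin gene clec-17, and fbxa-136 and T08E11.1, which both encode an FTH domain. The 8 genes are 0.048% of those tested (edgeR quasi-likelihood test over 12 libraries, Benjamini-Hochberg adjusted p under 0.05), against 0% called lower. All 8 rose at least 2-fold, and in each of them all 3 libraries at 10000 ng/g lay above all 3 at 2000 ng/g. Over all genes tested, 15.4% lay above in this way and 12.8% below, the median log2 fold change was -0.0049, and 49.3% of values were positive. At an unadjusted p under 0.05 there were 1173 higher and 531 lower genes. DESeq2 called 110 higher (0.66%) and 26 lower (0.156%), and all 8 genes were among its calls. In bulk RNA from whole worms, more cells of a type and more RNA per cell cannot be told apart.

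How many genes passed depended on which libraries were in the fit. Fitted to the 6 libraries alone, edgeR called 519 of 16086 genes higher (3.23%) and 382 lower (2.37%), and the 8 genes were again among them. The biological coefficient of variation was 17.2% in that fit and 24.1% with all 12 libraries. Leaving out 1 of the 6 libraries moved those shares between 0.165% and 3.47% higher and between 0.0305% and 3.97% lower. They were lowest without 10000 ng/g replicate 1, and 0.286% and 0.0791% without 2000 ng/g replicate 1, 0.604% and 0.244% without 10000 ng/g replicate 3, 1.12% and 0.385% without 10000 ng/g replicate 2, and 1.94% and 1.11% without 2000 ng/g replicate 2. Without 2000 ng/g replicate 3 the shares were at their highest. Counts of list members from the 6-library fit are therefore given with their range over these 6 reduced fits. In the same 12-library fit, 35 genes were higher and 7 lower at 10000 ng/g than in the controls, and 0 in either direction at 2000 ng/g. Those contrasts share libraries with this one, and their values are set beside it only for single genes.

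**Figure D1:**
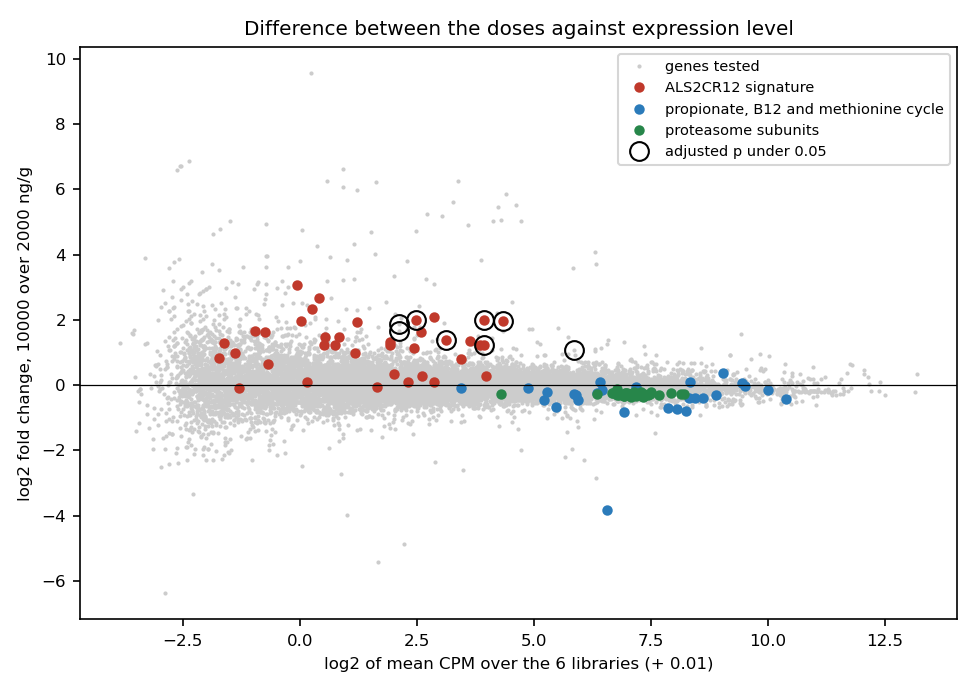
Log2 fold change of 10000 over 2000 ng/g (y axis) against the log2 of mean CPM over the 6 libraries (x axis), a point per gene tested. The 8 genes past the adjusted p of 0.05 are ringed, ALS2CR12 signature genes are red, propionate, vitamin B12 and methionine cycle genes blue and proteasome subunit genes green; the unringed points above a log2 fold change of 4 are mostly genes whose highest library was 10000 ng/g replicate 3.

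Among the signature genes that rose, ddn-1 and B0507.8 are neighbours on chromosome V. Expression of ddn-1 (WBGene00015227, chromosome V, 8758820 to 8760516, WBcel235) was 35.9, 36.2 and 24.5 CPM at 10000 ng/g, against 8.01, 10.8 and 6.05 CPM at 2000 ng/g. Its log2 fold change was 1.96 ± 0.265 (SE; edgeR adjusted p = 0.0368). Expression of B0507.8 (WBGene00015225, chromosome V, 8760622 to 8762961) was 25.5, 27.3 and 20.8 CPM at 10000 ng/g, against 5.83, 8.47 and 4.24 CPM at 2000 ng/g. In both genes the lowest library at the high dose was more than double the highest at the lower dose. The log2 fold change of B0507.8 was 1.99 ± 0.247 (edgeR adjusted p = 0.029). The controls averaged 5.33 ± 1.48 CPM for ddn-1 and had 4.15, 4.76 and 4.90 CPM for B0507.8. Log2 fold changes of 2000 ng/g over control were 0.64 for ddn-1 and 0.42 for B0507.8, and neither passed (edgeR adjusted p = 0.855 for both).

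The third signature gene, F42C5.3 (WBGene00018345, chromosome IV, 7286097 to 7287574), has no neighbour of the family within 50000 bases among the genes tested. It was expressed at 9.48, 8.45 and 8.66 CPM at 10000 ng/g, against 1.84, 2.16 and 2.71 CPM at 2000 ng/g, with the libraries at the high dose close together. Its log2 fold change was 1.99 ± 0.255 (edgeR adjusted p = 0.029). The named family member pals-6 (WBGene00007660, chromosome I, 13136390 to 13138544) was expressed at 23.7, 22.6 and 17.9 CPM at 10000 ng/g, against 9.19, 9.501 and 8.76 CPM at 2000 ng/g. The groups did not overlap, and the log2 fold change was 1.23 ± 0.17 (edgeR adjusted p = 0.037).

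The other 4 genes that rose belong to different families. Expression of col-101 (WBGene00000675, chromosome IV, 325435 to 327020), for a cuticle collagen, was 15.5, 11.4 and 11.1 CPM at 10000 ng/g, against 4.52, 4.87 and 5.21 CPM at 2000 ng/g (log2 fold change 1.38 ± 0.161, edgeR adjusted p = 0.029). Replicate 1 at the high dose stood above the other two, and the libraries at 2000 ng/g were close together. The gene overlaps drl-1 on the opposite strand, and the strand setting of the counting is not given in the sources used here. Expression of clec-17 (WBGene00008477, chromosome I, 12430028 to 12431500), for a C-type lectin with a CUB domain, was 79.6, 82.5 and 73.8 CPM at 10000 ng/g, against 30.3, 46.0 and 34.6 CPM at 2000 ng/g. Its log2 fold change, 1.09 ± 0.159, was the smallest of the 8 (edgeR adjusted p = 0.0384).

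The gene fbxa-136 (WBGene00007672, chromosome V, 17521035 to 17527479) is named for an F-box, the motif by which proteins are handed to a ubiquitin ligase. It stood at 7.38, 6.97 and 6.18 CPM at 10000 ng/g, against 1.79, 2.55 and 1.29 CPM at 2000 ng/g (log2 fold change 1.87 ± 0.266, edgeR adjusted p = 0.0384). Alone among the 8 genes it did not pass against the controls, which averaged 3.18 ± 0.232 CPM: the log2 fold change of 10000 ng/g over control was 1.103 (edgeR adjusted p = 0.0934) and that of 2000 ng/g over control -0.76 (edgeR adjusted p = 0.855). The uncharacterised T08E11.1 (WBGene00020357, chromosome II, 1836504 to 1840363) stood at 6.46, 7.37 and 6.08 CPM at 10000 ng/g, against 1.47, 2.86 and 2.00 CPM at 2000 ng/g (log2 fold change 1.65 ± 0.241, edgeR adjusted p = 0.0384).

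**Figure D2:**
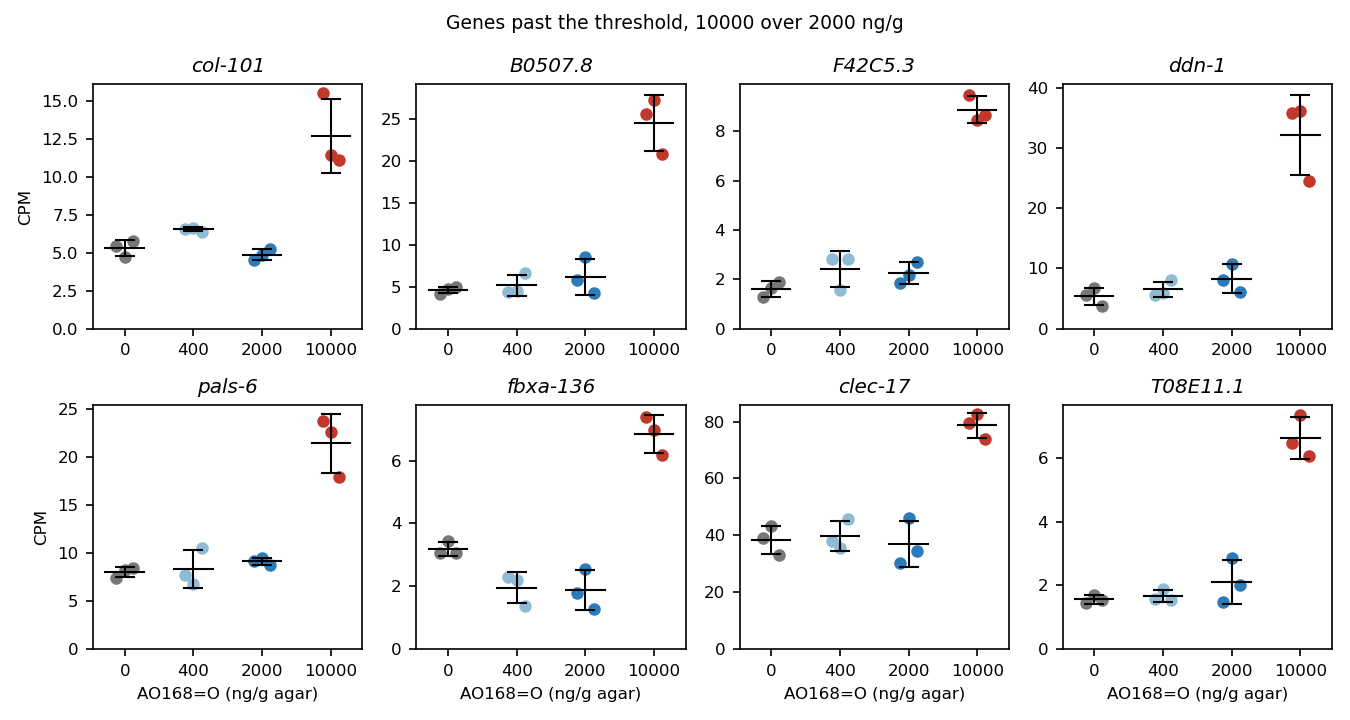
CPM of the 8 genes past the threshold in each library (points), with the mean and SD of each group of 3 (lines), by AO168=O dose in ng/g of agar. The libraries at 10000 ng/g lie above every library of the other 3 groups in each gene, for example at 20.8 to 27.3 CPM for B0507.8 where those at 2000 ng/g lie at 4.24 to 8.47 CPM.

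Beside these values, the log2 fold changes of 10000 ng/g over control were 2.59 for ddn-1, 2.41 for B0507.8, 2.46 for F42C5.3, 1.419 for pals-6, 2.08 for T08E11.1, 1.25 for col-101 and 1.03 for clec-17, all past the threshold in a contrast that shares the high-dose libraries. Each of the 8 calls between the doses was close to the threshold. Over 12 fits that each left out 1 library, B0507.8 was called in 6, ddn-1, col-101 and F42C5.3 in 5, pals-6, clec-17 and fbxa-136 in 4 and T08E11.1 in 3, and the log2 fold change of every gene stayed at 0.965 or more. All 8 lost their call without any single library at 10000 ng/g, without 2000 ng/g replicate 1 or 3, and without control replicate 2.

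Over the whole family, positive differences were found in most members beyond the 4 called. Of 38 pals genes in the annotation 32 were tested, and 37 of 44 genes with the ALS2CR12 signature, a list taken from the deposited descriptions after the called genes had been seen; together they are 40 genes, 29 of them in both sets. Log2 fold changes were positive for 38 of the 40, with a median of 1.24. For 32 of the 40, all 3 libraries at 10000 ng/g lay above all 3 at 2000 ng/g (15.4% of all genes tested), and for none did they lie below. The 12-library fit called 4 of them (0.048% of all genes), the 6-library fit 21 (3.23% of all genes) and DESeq2 18 (0.66%). Each of the 40 had at least 10 counts in 3 or more of the 9 libraries outside 10000 ng/g. The 12-library filter sets its limit in CPM rather than in counts. Whether each of the 40 would pass it without the high dose was not tested. The filter of the 6-library fit used the compared doses only. Members with few counts at 2000 ng/g, such as pals-29, could pass it through the high dose, and the 6-library count carries that limit. For the 37 signature genes the 6-library count was 20, and it ran from 4 to 20 when 1 library was left out. Some pals genes are near-identical copies that may share reads, and levels of single members are uncertain to that extent.

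The mean log2 CPM of the 37 signature genes, relative to the mean at 2000 ng/g, was 1.32, 1.27 and 1.03 at 10000 ng/g, against -0.08, 0.17 and -0.09 at 2000 ng/g. The controls stood at -0.39, -0.09 and -0.38 and the libraries at 400 ng/g at 0.13, -0.46 and -0.01. The 3 high-dose libraries were thus the only ones of the 12 above 0.17 on this scale. Among the high-dose libraries, replicate 1 was the highest and replicate 3 the lowest.

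The family did not move as a block, and its values are given by position on the chromosomes. A group of 10 genes lies on chromosome I between 13104251 and 13144623 (pals-2 to pals-9, pals-14 and pals-15). Its median log2 fold change was 1.53, from 0.99 to 2.67. Of its members, 9 of 10 lay above in all libraries (15.4% of all genes), and the 6-library fit called 6 (3.23%). The groups of pals-26, pals-27 and pals-28 on chromosome III (4375154 to 4387757) and of pals-29 and pals-30 on chromosome IV (14539685 to 14551970) had medians of 2.09 and 2.27. On chromosome V, B0507.7, ddn-1, B0507.8 and B0507.9 (8757312 to 8766038) had a median of 1.59 and pals-37, pals-38 and pals-39 (12437440 to 12446995) one of 1.23.

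Another 2 groups on chromosome III differed less. The 4 genes pals-22 to pals-25 (120435 to 137975) had a median log2 fold change of 0.31, with 3 above in all libraries (15.4% of all genes). The 5 genes pals-16 to pals-20 (1386993 to 1406263) had a median of 0.10, with 1 above. Of these 9 genes the 6-library fit called 0 (3.23% of all genes). The pair pals-22 and pals-25 is the known switch of the intracellular pathogen response, the first holding it off and the second turning it on. Expression of pals-22 (WBGene00016216) was 5.87, 5.75 and 5.62 CPM at 10000 ng/g, against 5.51, 5.38 and 4.97 CPM at 2000 ng/g (log2 fold change 0.12 ± 0.156, edgeR adjusted p = 0.792). Expression of pals-25 (WBGene00020540) was 4.23, 4.74 and 4.69 CPM at 10000 ng/g, against 4.12, 3.86 and 2.71 CPM at 2000 ng/g (log2 fold change 0.35 ± 0.216, edgeR adjusted p = 0.568). The groups did not overlap in either gene.

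The largest fold changes of the family were in members with few counts. Expression of pals-29 (WBGene00012091) was 1.74, 1.84 and 1.52 CPM at 10000 ng/g, against 0.158, 0.257 and 0.184 CPM at 2000 ng/g, a log2 fold change of 3.07 ± 0.497 that did not pass with 12 libraries (edgeR adjusted p = 0.0896) and did with 6 (0.00709). Expression of pals-5 (WBGene00007659), the gene commonly used as a reporter of the response, was 2.28, 2.78 and 1.84 CPM at 10000 ng/g, against 0.315, 0.283 and 0.474 CPM at 2000 ng/g. Its log2 fold change was 2.67 ± 0.491 (edgeR adjusted p = 0.15 with 12 libraries and 0.0105 with 6). In both genes the lowest library at the high dose exceeded the highest at the lower dose by a wide margin. Expression of pals-26 (WBGene00007131) was 11.4, 11.3 and 12.6 CPM at 10000 ng/g, against 2.39, 3.12 and 2.79 CPM at 2000 ng/g (log2 fold change 2.09 ± 0.484, edgeR adjusted p = 0.244 with 12 libraries and 0.00504 with 6). The members pals-5, pals-22, pals-25, pals-26 and pals-29 were singled out after their values were seen. Of the 6 pals genes below the filter, pals-11 had 29, 10 and 16 counts at 10000 ng/g, against 0, 0 and 0 at 2000 ng/g, and the other 5 had at most 11 counts in any of these 6 libraries.

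**Figure D3:**
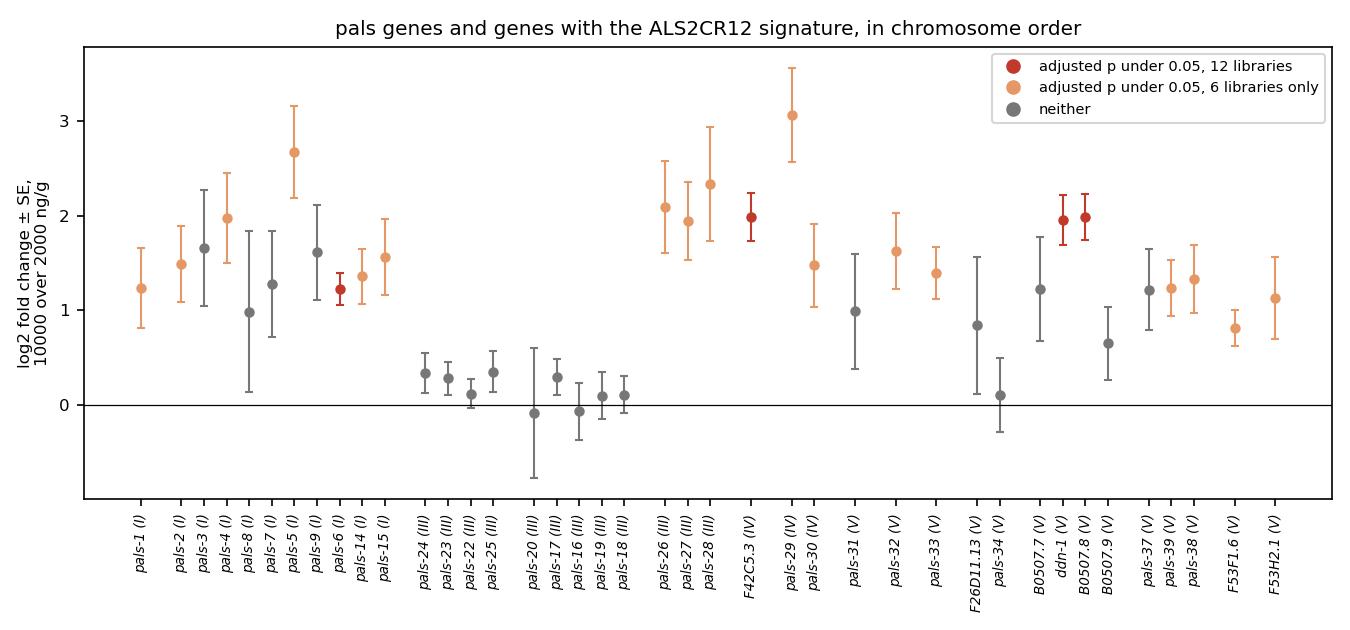
Log2 fold change of 10000 over 2000 ng/g with its standard error (y axis) for the 40 tested pals genes and genes with the ALS2CR12 signature, in chromosome order (x axis, chromosome in brackets, gaps separating groups of neighbours). Red points passed with 12 libraries, orange points with 6 libraries only and grey points with neither; pals-16 to pals-20 and pals-22 to pals-25 lie between -0.084 and 0.353, and pals-29 is highest at 3.07.

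Other genes of the intracellular pathogen response stood higher at the high dose in smaller measure. Of 14 tested, 13 were positive (median 0.66 on the log2 scale), the 2 called being ddn-1 and B0507.8, and 10 of 14 lay above in all libraries (15.4% of all genes). The 6-library fit called 4, against 3.23% of all genes, and 0 to 5 with 1 library left out. Their mean log2 CPM, set to 0 at the average of 2000 ng/g, was 0.80, 0.80 and 0.83 at 10000 ng/g, against 0.06, 0.07 and -0.13 at 2000 ng/g. The following 4 genes were singled out after their values were seen, and none passed with 12 libraries. The gene eol-1, for a decapping nuclease, averaged 10.4 ± 1.26 CPM at 10000 ng/g and 5.11 ± 0.334 CPM at 2000 ng/g (log2 fold change 1.02 ± 0.303, edgeR adjusted p = 0.338). The Skp1-related gene skr-4, for a ubiquitin ligase component, averaged 43.2 ± 0.342 CPM at 10000 ng/g and 31.1 ± 4.2 CPM at 2000 ng/g (log2 fold change 0.47 ± 0.122, edgeR adjusted p = 0.303). Its partner cullin gene cul-6 averaged 6.13 ± 0.537 CPM at 10000 ng/g and 4.11 ± 0.703 CPM at 2000 ng/g (log2 fold change 0.58 ± 0.187, edgeR adjusted p = 0.366). For zip-1, a bZIP transcription factor that drives part of the response, the log2 fold change was 0.47 ± 0.106, with 46.1, 46.0 and 42.1 CPM at 10000 ng/g, against 30.8, 33.1 and 32.9 CPM at 2000 ng/g (edgeR adjusted p = 0.244 with 12 libraries and 0.0162 with 6). All 4 genes had groups that did not overlap (SD, n = 3).

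Families that supply ubiquitin ligases with their targets showed the same lean. Of 159 F-box genes 113 had a positive log2 fold change (median 0.21), 45 lay above in all libraries and 3 below, and fbxa-136 was the 1 called. Over all genes tested 15.4% lay above and 12.8% below. Of 70 genes with MATH or BTB domains 51 were positive (median 0.25), 30 lay above and 1 below, and 0 were called. The 6-library fit called 11 F-box and 7 MATH or BTB genes higher (3.23% of all genes), with ranges of 0 to 11 and 2 to 7 when 1 library was left out. Mean log2 CPM of the F-box genes, relative to the mean at 2000 ng/g, was 0.27, 0.38 and 0.25 at 10000 ng/g, against -0.10, 0.06 and 0.05 at 2000 ng/g, with 400 ng/g replicate 1 as high at 0.34. For the MATH and BTB genes it was 0.41, 0.27 and 0.37 at 10000 ng/g, against -0.11, 0.02 and 0.09 at 2000 ng/g, and 400 ng/g replicate 1 stood above them at 0.48. The member with the smallest p was math-34, at 7.27, 6.90 and 7.38 CPM at 10000 ng/g, against 1.39, 2.01 and 1.79 CPM at 2000 ng/g (log2 fold change 2.05 ± 0.416, edgeR adjusted p = 0.187).

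The 12 genes next in line by unadjusted p, each with at least 5 CPM in the higher group, did not pass, and all had groups that did not overlap. Of these, 10 were higher and 2 lower at 10000 ng/g. The glutathione S-transferase gene gst-19, of the enzymes that attach glutathione to reactive or foreign compounds, came closest, at 11.3, 8.69 and 10.6 CPM at 10000 ng/g, against 3.73, 5.64 and 4.95 CPM at 2000 ng/g. Its log2 fold change was 1.096 ± 0.185 (edgeR adjusted p = 0.121). It is the member of this set that differed most from control at 2000 ng/g too, where the controls averaged 2.80 ± 0.247 CPM (log2 fold change of 2000 ng/g over control 0.77, edgeR adjusted p = 0.855). The gene F58E6.4, annotated with an activin receptor domain, stood at 11.8, 13.5 and 15.1 CPM at 10000 ng/g, against 4.15, 4.94 and 1.66 CPM at 2000 ng/g (log2 fold change 1.91 ± 0.335, edgeR adjusted p = 0.144).

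The remaining higher genes of that set were pals-33 (log2 fold change 1.39), the GDSL lipase-like gene Y65B4BR.1 (1.31), far-3 (1.27), the RING domain gene C38D9.2 (0.89), tmem-135 (0.76), the saposin-like gene spp-18 (0.70), T01D3.6 (0.69), annotated with a von Willebrand factor type D domain, and elo-6 (0.67), with edgeR adjusted p from 0.144 to 0.185. The fatty acid and retinol binding gene far-3 stood at 135, 113 and 157 CPM at 10000 ng/g, against 52.3, 72.6 and 42.5 CPM at 2000 ng/g. It overlaps far-5, and tmem-135 overlaps flp-11, so reads of these genes may be shared. The lower genes were T22B7.3, an amidinotransferase gene that overlaps srv-7, which differed by -0.80 ± 0.149 on the log2 scale, and dhgd-1, for mitochondrial D-2-hydroxyglutarate dehydrogenase, which differed by -0.56 ± 0.106 (edgeR adjusted p = 0.156 for both). Expression of dhgd-1, which overlaps 4 other genes, was 55.02, 62.5 and 50.5 CPM at 10000 ng/g, against 85.7, 86.0 and 76.3 CPM at 2000 ng/g.

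Of 58 gene lists covering pathways, families and tissues, 53 had no member past the 12-library threshold. Their medians are given as values. Scaling the libraries by the upper quartile, by the RLE method or by totals alone shifted list medians by at most 0.061, and 7 medians near 0 changed sign under totals alone; no direction is given for those 7 lists.

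**Figure D4:**
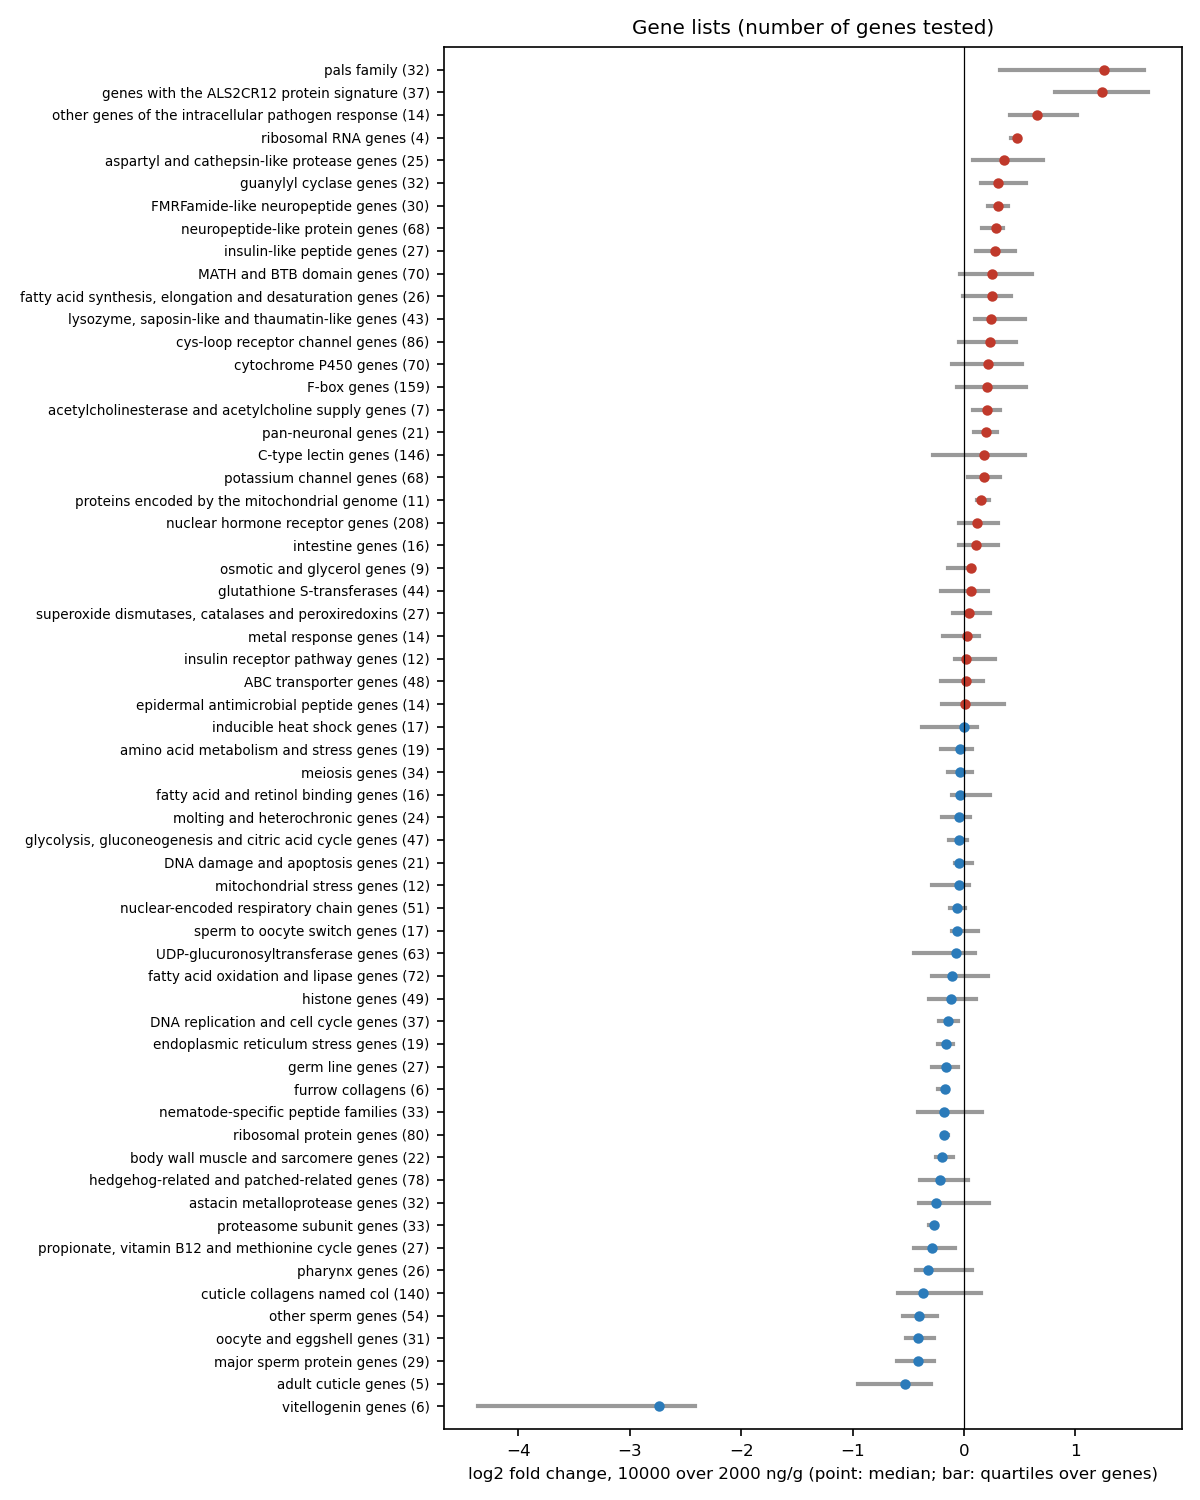
Median (points) and quartiles (bars) of the log2 fold change of 10000 over 2000 ng/g (x axis) over the tested genes of each list (rows, number of genes in brackets), in order of the median. The pals family and the genes with the ALS2CR12 signature are at the top with medians of 1.26 and 1.24, and the vitellogenins at the bottom with -2.73.

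Genes for making and remodelling fatty acids stood higher at 10000 ng/g. Of 26 tested, 19 had a positive log2 fold change (median 0.25), 15 lay above in all libraries (15.4% of all genes) and 2 below (12.8%), and 0 passed with 12 libraries. The 6-library fit called 9 higher (34.6%, against 3.23% of all genes; 1 to 9 with 1 library left out) and 0 lower. These, listed after their values were seen, were elo-5, elo-6, pod-2, hpo-8, fat-1, fat-2, fat-3, fat-4 and fat-5. The elongase gene elo-6 (WBGene00001244, chromosome IV, 5386629 to 5388559), whose enzyme makes monomethyl branched-chain fatty acids, was expressed at 491, 425 and 494 CPM at 10000 ng/g, against 283, 335 and 268 CPM at 2000 ng/g. The groups did not overlap (log2 fold change 0.67 ± 0.124, edgeR adjusted p = 0.151 with 12 libraries and 0.0138 with 6). Its partner elongase gene elo-5 had 208, 172 and 184 CPM at 10000 ng/g, against 124, 140.5 and 118.6 CPM at 2000 ng/g (log2 fold change 0.56 ± 0.112, edgeR adjusted p = 0.187 with 12 libraries and 0.017 with 6).

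Other steps of the same pathway included the first committed enzyme and the desaturases, singled out after their values were seen. The acetyl-CoA carboxylase gene pod-2 averaged 1160.2 ± 51.1 CPM at 10000 ng/g and 816 ± 63.6 CPM at 2000 ng/g (log2 fold change 0.51 ± 0.132, edgeR adjusted p = 0.303). The delta-9 desaturase gene fat-5 averaged 30.4 ± 7.64 CPM at 10000 ng/g and 6.52 ± 1.5 CPM at 2000 ng/g, and fat-2, for the desaturase that makes linoleic acid, 738 ± 19.7 CPM at 10000 ng/g and 557 ± 33.6 CPM at 2000 ng/g (n = 3, SD). The fatty acid synthase gene fasn-1 had a log2 fold change of -0.02, so the list did not move as a whole. Relative to the mean at 2000 ng/g, the mean of the 26 genes was 0.24, 0.19 and 0.29 at 10000 ng/g, against -0.02, 0.07 and -0.04 at 2000 ng/g. Replicate 1 at 400 ng/g stood at 0.14 and no other library outside the high dose above 0.07. Of all counts, the list took 0.813, 0.787 and 0.815% at 10000 ng/g, against 0.597, 0.665 and 0.625% at 2000 ng/g. In 400 ng/g replicate 1 it took 0.917%, more than in any high-dose library.

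Breakdown and transport of lipids gave a mixed picture. Of 72 genes for fatty acid oxidation and lipases 13 lay above (15.4% of all genes) and 18 below (12.8%) in all libraries, and the 6-library fit called 9 higher (3.23% of all genes; 2 to 10 with 1 library left out) and 5 lower (2.37%; 1 to 11). The genes described here were named after their values were seen, and none passed with 12 libraries. The lysosomal lipase gene lipl-1 had 179, 176 and 171 CPM at 10000 ng/g, against 52.8, 75.2 and 81.1 CPM at 2000 ng/g (log2 fold change 1.33 ± 0.462, edgeR adjusted p = 0.391 with 12 libraries and 0.0062 with 6). Its relative lipl-5 had 895, 824 and 883 CPM at 10000 ng/g, against 531, 600.3 and 703 CPM at 2000 ng/g (log2 fold change 0.51 ± 0.131, edgeR adjusted p = 0.303 with 12 libraries and 0.0289 with 6). Both had groups that did not overlap, but lipl-1 stood at 190.4 CPM in 400 ng/g replicate 1 and at 161 CPM in control replicate 3. The enoyl-CoA hydratase gene ech-6, of the propionate shunt, was lower, with 196, 213 and 199 CPM at 10000 ng/g, against 368, 331 and 307 CPM at 2000 ng/g (log2 fold change -0.73 ± 0.293, edgeR adjusted p = 0.446 with 12 libraries and 0.00621 with 6).

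Genes of the propionate shunt and of the methionine cycle stood lower at 10000 ng/g. Of 27 genes for propionate, vitamin B12 and methionine metabolism, 23 had a negative log2 fold change (median -0.29), 15 lay below in all libraries (12.8% of all genes) and 1 above, and 0 passed with 12 libraries. The 6-library fit called 11 lower (40.7%, against 2.37% of all genes; 2 to 13 with 1 library left out) and 1 higher. The shunt's first enzyme gene acdh-1 (WBGene00016943, chromosome I, 6497436 to 6499560) had 5.81, 27.5 and 4.03 CPM at 10000 ng/g, against 245, 145 and 145 CPM at 2000 ng/g. The groups were far apart, with replicate 2 at the high dose above the other two. The log2 fold change was -3.84 ± 0.991, which did not pass with 12 libraries (edgeR adjusted p = 0.303) and did with 6 (0.0182) and with DESeq2 (adjusted p = 0.0209). Outside the compared doses acdh-1 varied widely: the controls had 139, 80.1 and 34.7 CPM and the libraries at 400 ng/g 8.62, 127 and 175 CPM.

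Later enzymes of the shunt followed at smaller size. The gene hphd-1 (WBGene00012608), for the dehydrogenase acting on 3-hydroxypropionate, had 196, 265 and 209.9 CPM at 10000 ng/g, against 425, 389.7 and 339 CPM at 2000 ng/g (log2 fold change -0.78 ± 0.161, edgeR adjusted p = 0.187 with 12 libraries and 0.0153 with 6). The hydrolase gene hach-1 averaged 87.9 ± 1.62 CPM at 10000 ng/g and 155 ± 18.6 CPM at 2000 ng/g (n = 3, SD), a log2 fold change of -0.82, and alh-8, for the last step, had one of -0.16. Of the canonical route, mmcm-1, for the B12-dependent mutase, had overlapping groups and averaged 335 ± 38.8 CPM at 10000 ng/g and 316 ± 12.5 CPM at 2000 ng/g (log2 fold change 0.09 ± 0.1, edgeR adjusted p = 0.764). In the methionine cycle, the synthase gene metr-1 and its reductase mtrr-1 had log2 fold changes of -0.39 and -0.67, and mthf-1, which supplies the methyl group, one of -0.40. The genes hach-1, alh-8, mmcm-1, metr-1, mtrr-1 and mthf-1 were named after their values were seen. The gene pmp-5, whose best match in the deposited description is a lysosomal cobalamin transporter, had 23.2, 32.5 and 28.2 CPM at 10000 ng/g, against 98.2, 72.6 and 57.4 CPM at 2000 ng/g (log2 fold change -1.44 ± 0.359, edgeR adjusted p = 0.285 with 12 libraries and 0.0109 with 6). The mean of the 27 genes, relative to the mean at 2000 ng/g, was -0.46, -0.37 and -0.47 at 10000 ng/g, against 0.08, 0.00 and -0.08 at 2000 ng/g, but 400 ng/g replicate 1 stood at -0.48 and control replicate 3 at -0.39.

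Subunits of the proteasome, which breaks down ubiquitin-tagged proteins, showed a small and uniform difference. All 33 had a negative log2 fold change, from -0.36 to -0.13 with a median of -0.27, 32 lay below in all libraries (12.8% of all genes) and 0 passed with 12 libraries. The 6-library fit called 17 lower (51.5%, against 2.37% of all genes), and 0 to 22 with 1 library left out. The smallest p was that of rpt-2, for an ATPase subunit, at 135, 143 and 146 CPM at 10000 ng/g, against 189, 180.2 and 174 CPM at 2000 ng/g (log2 fold change -0.36 ± 0.142, edgeR adjusted p = 0.439). The gene overlaps fos-1. Relative to the mean at 2000 ng/g, the mean of the 33 genes was -0.32, -0.25 and -0.25 at 10000 ng/g, against 0.05, -0.02 and -0.03 at 2000 ng/g. A library outside the high dose lay lower still, 400 ng/g replicate 1 at -0.42. Ribosomal protein genes also leaned down, with 79 of 80 negative and a median of -0.18, 27 below in all libraries and 0 called by either edgeR fit.

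Gene families of digestion and defence stood higher at 10000 than at 2000 ng/g. Of 25 aspartyl and cathepsin-like protease genes 19 were positive (median 0.36), 16 lay above in all libraries (15.4% of all genes) and 3 below. The 6-library fit called 11 higher (44.0%, against 3.23% of all genes; 2 to 10 with 1 library left out). The aspartyl protease gene asp-12 had 901, 717 and 709 CPM at 10000 ng/g, against 309.7, 371 and 533 CPM at 2000 ng/g (log2 fold change 0.94 ± 0.192, edgeR adjusted p = 0.187). Of 146 C-type lectin genes 46 lay above (15.4% of all genes) and 13 below (12.8%), and the 6-library fit called 24 higher (3.23% of all genes; 1 to 25) and 5 lower (2.37%; 0 to 7). The lectin mean, relative to 2000 ng/g, was 0.17, 0.16 and 0.15 at 10000 ng/g, against -0.03, -0.08 and 0.11 at 2000 ng/g. It was 0.08, 0.16 and 0.15 in the controls, so the lectins were not clearly above the controls at the high dose. Of 43 lysozyme, saposin-like and thaumatin-like genes 17 lay above and 3 below, with 9 called higher (0 to 9) and 1 lower. The saposin-like gene spp-18 stood at 184, 168 and 184 CPM at 10000 ng/g, against 100.2, 109.5 and 121 CPM at 2000 ng/g, and at 147 ± 16.2 CPM in the controls (SD, n = 3). Markers of the intestine had a median of 0.11 over 16 genes, with 7 above, 0 below and 4 called higher (1 to 4) by the 6-library fit, and the median was 0.03 without 2000 ng/g replicate 3. These markers include the protease genes asp-1, cpr-1 and cpr-6, the saposin-like gene spp-5 and the lysozyme gene lys-7. They are therefore not separate from those families. The part of the intestine in the values of the protease and defence genes was not tested. Libraries outside the compared doses came near the high-dose level or passed it: the protease mean, relative to 2000 ng/g, was 0.43, 0.40 and 0.50 at 10000 ng/g, against -0.14, -0.04 and 0.18 at 2000 ng/g, and 0.39 in control replicate 2, and the lysozyme mean was 0.33, 0.29 and 0.52 at 10000 ng/g, against -0.13, 0.05 and 0.07 at 2000 ng/g, and 0.60 in 400 ng/g replicate 1.

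Enzymes that act on foreign compounds did not move together. Of 44 glutathione S-transferase genes 24 were positive (median 0.06) and of 70 cytochrome P450 genes 45 (median 0.22), with 0 of either called. Of 63 UDP-glucuronosyltransferase genes 40 were negative (median -0.07), 18 lay below in all libraries (12.8% of all genes) and 7 above (15.4%), and the 6-library fit called 13 lower (2.37% of all genes; 0 to 14 with 1 library left out) and 1 higher (3.23%; 0 to 1). The medians of these families were not stable: without 2000 ng/g replicate 2 that of the UDP-glucuronosyltransferase genes was 0.02, without 10000 ng/g replicate 3 that of the glutathione S-transferase genes was -0.02, and without 2000 ng/g replicate 1 that of the cytochrome P450 genes was 0.13. The member with the smallest p, ugt-30, had 0.808, 0.589 and 0.506 CPM at 10000 ng/g, against 2.60, 2.32 and 2.42 CPM at 2000 ng/g (log2 fold change -1.93 ± 0.529, edgeR adjusted p = 0.316).

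Many organophosphates inhibit acetylcholinesterase, the enzyme that ends cholinergic signalling. None of its 4 genes passed. The muscle form ace-1 had 43.9, 45.5 and 39.9 CPM at 10000 ng/g, against 30.6, 34.5 and 32.8 CPM at 2000 ng/g (log2 fold change 0.40 ± 0.15, edgeR adjusted p = 0.414 with 12 libraries and 0.0318 with 6). The groups of ace-2 overlapped, at 54.5, 62.2 and 63.1 CPM at 10000 ng/g, against 59.4, 59.7 and 54.9 CPM at 2000 ng/g (log2 fold change 0.05 ± 0.094, edgeR adjusted p = 0.864). The genes ace-3 and ace-4 had log2 fold changes of 0.25 ± 0.162 and 0.72 ± 0.234 (edgeR adjusted p = 0.585 and 0.364). The asparagine synthetase gene asns-2 had overlapping groups, at 216 ± 20.3 CPM at 10000 ng/g and 202 ± 20.7 CPM at 2000 ng/g, with the controls at 116, 135 and 135 CPM (SD, n = 3; log2 fold change between the doses 0.10 ± 0.116, edgeR adjusted p = 0.767).

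Signalling genes of the nervous system had small positive differences. All 30 tested FMRFamide-like neuropeptide genes were positive (median 0.30, from 0.05 to 0.54). Of these, 16 lay above in all libraries (15.4% of all genes) and 0 below (12.8%). The 6-library fit called 7 higher, against 3.23% of all genes, and 0 to 6 with 1 library left out. Neuropeptide-like protein genes (58 of 68 positive, median 0.29), insulin-like peptide genes (23 of 27, 0.28), guanylyl cyclase genes (26 of 32, 0.31) and potassium channel genes (57 of 68, 0.18) leaned the same way. Pan-neuronal markers had a median of 0.20, with 18 of 21 positive, 9 above and 0 below. Without 2000 ng/g replicate 3 the median was 0.12 for the pan-neuronal markers and 0.09 for the potassium channel genes. Their library means, relative to the mean at 2000 ng/g, were 0.21, 0.18 and 0.22 at 10000 ng/g, against 0.07, 0.11 and -0.18 at 2000 ng/g, and 400 ng/g replicate 2 stood at 0.24. For the FMRFamide-like genes the means were 0.19, 0.36 and 0.36 at 10000 ng/g, against 0.03, 0.10 and -0.12 at 2000 ng/g. Those at 400 ng/g were 0.60, 0.22 and 0.24, and the controls stood at 0.07, -0.01 and 0.08. For the neuropeptide-like protein genes the means were 0.09, 0.31 and 0.30 at 10000 ng/g, against 0.04, 0.075 and -0.12 at 2000 ng/g. At 400 ng/g they were 0.29, 0.23 and 0.22. In both lists every library at 400 ng/g thus lay above every library at 2000 ng/g too. The part of the neuronal markers in the neuropeptide values was not tested.

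Yolk genes had the median farthest from 0 of the lists, with wide differences between libraries of a group. All 6 vitellogenin genes lay below in all libraries (12.8% of all genes), with a median of -2.73, from -5.41 to -2.28. With 12 libraries 0 passed. The 6-library fit called 4 lower, against 2.37% of all genes, and 0 to 5 with 1 library left out. Expression of vit-4 (WBGene00006928) was 0.128, 0.246 and 0.0533 CPM at 10000 ng/g, against 13.2, 2.60 and 2.82 CPM at 2000 ng/g (log2 fold change -5.41 ± 1.58, edgeR adjusted p = 0.338). The mean of the 6 genes, relative to the mean at 2000 ng/g, was -4.26, -2.13 and -3.86 at 10000 ng/g, against 1.14, -0.86 and -0.28 at 2000 ng/g. The controls spanned 0.36, -3.15 and -1.66, and 400 ng/g replicate 1 stood at -3.77, so low yolk transcripts were found outside the high dose too.

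Genes that mark the germ line and the passage to adulthood had negative medians that hung on single libraries, and in most of them the groups overlapped. Major sperm protein genes, for the protein that drives nematode sperm crawling, were negative in 29 of 29 (median -0.42), and in every one the groups overlapped. Other sperm genes had a median of -0.41 over 54, oocyte and eggshell genes -0.41 over 31 and germ line genes -0.16 over 27, and adult cuticle genes -0.53 over 5. Without 2000 ng/g replicate 3 the medians were 0.01 for major sperm protein genes, -0.05 for other sperm genes, -0.09 for oocyte and eggshell genes and -0.03 for germ line genes. Leaving out 1 of the 6 libraries, the medians ran from -0.68 to 0.01 for major sperm protein genes, from -0.61 to -0.05 for other sperm genes, from -0.62 to -0.09 for oocyte and eggshell genes, from -0.24 to -0.03 for germ line genes and from -1.17 to -0.29 for adult cuticle genes. In libraries, the mean of the sperm protein genes was -0.37, 0.12 and -0.89 at 10000 ng/g, against -0.06, -0.65 and 0.71 at 2000 ng/g, and that of the adult cuticle genes -1.08, 0.10 and -1.40 at 10000 ng/g, against 0.20, -0.61 and 0.41 at 2000 ng/g. Replicate 2 at the high dose, the highest of its group for vitellogenins and acdh-1, was also the highest for sperm and adult cuticle genes. The mean of the 37 signature genes, relative to the mean at 2000 ng/g, was 1.32, 1.27 and 1.03 in replicates 1 to 3 at 10000 ng/g. The part of the stage of the worms in the differences of yolk, cuticle, metabolic and signature genes was not tested.

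**Figure D5:**
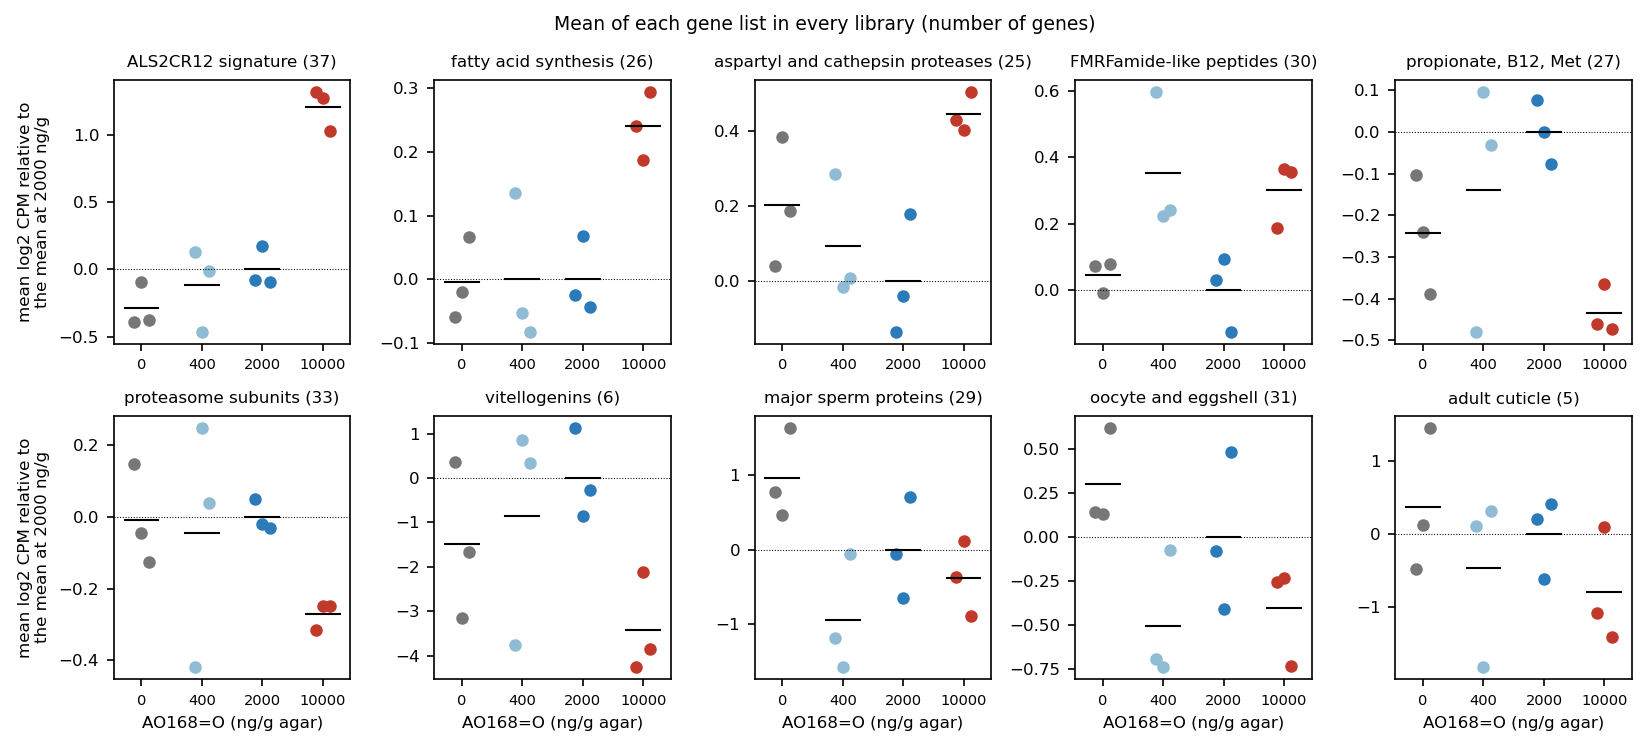
Mean log2 CPM of 10 gene lists in each of the 12 libraries (points; line, mean of the group), relative to the mean at 2000 ng/g, by AO168=O dose in ng/g of agar. The 3 libraries at 10000 ng/g lie apart from all others for the ALS2CR12 signature (1.03 to 1.32). For the fatty acid list they lie at 0.19 to 0.29, with 400 ng/g replicate 1 close below at 0.14. That library lies beside them for the propionate list (-0.48), the proteasome (-0.42) and the vitellogenins (-3.77).

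Collagen genes were split. Of 140 tested col genes 101 were negative (median -0.37, and -0.24 without 2000 ng/g replicate 1). Of the 140, 41 lay below in all libraries (12.8% of all genes), 21 lay above (15.4%) and 1 was called higher. The 6-library fit called 21 lower (2.37% of all genes) and 11 higher (3.23%). With 1 library left out it called 0 to 35 lower and 1 to 8 higher. Among the differences of largest size over all genes, many were of this kind: 32 genes had a fitted difference of more than 16-fold upwards at 10000 ng/g, some of them against libraries at 0, where a fitted fold is no bound. In the other direction there were 3, vit-3, vit-4 and dot-1.2. Of the 32 genes, 16 were col genes and 4 were ground-like (grl) genes, for secreted proteins, and in 31 of the 32 the highest of the 6 libraries was 10000 ng/g replicate 3. Their edgeR adjusted p ran from 0.244 to 0.489, and 5 of the 32 passed with 6 libraries. Not all were carried by that library: C13A2.7, named after its values were seen, had 0.298, 0.442 and 0.800 CPM at 10000 ng/g, against 0.0525, 0 and 0 CPM at 2000 ng/g. Genes near 0 at 2000 ng/g, this one included, could pass the filter of the 6-library fit only through the high dose. Their separation is thus partly built in by the filter and the choice of large folds. The collagen gene col-40, singled out after its values were seen, had 1.21, 10.9 and 112.5 CPM at 10000 ng/g, against 1.29, 0.438 and 0.395 CPM at 2000 ng/g, so that the groups overlapped. The cuticlin gene cut-1, also singled out afterwards, had 0.914, 10.6 and 102.9 CPM at 10000 ng/g, against 2.07, 0.618 and 0.737 CPM at 2000 ng/g. The median of the 32 genes was 0.351, 1.66 and 12.6 CPM in the 3 libraries at 10000 ng/g, against 0.223, 0.0772 and 0.0789 CPM at 2000 ng/g, and it was 12.5 CPM in 400 ng/g replicate 1 and 1.94 CPM in control replicate 3.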

How the data were processed

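Poly(A) RNA libraries of 12 samples were sequenced in paired-end mode. The authors deposited raw read counts per gene and FPKM values. The submitters' processing notes name featureCounts 2.0.6, HISAT2 2.2.1, CASAVA and DESeq2 1.42.0, while the build, strandedness and treatment of multiply matching reads were not stated in the sources used. Of 46987 features, 46926 had the coordinates of WBcel235 in Ensembl release 115. FPKM, deposited by the authors, served for 1 check: the ratio of count to length times FPKM was constant within a library to 6.5e-07% for genes with over 50 counts.

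Counts as deposited were tested with edgeR 4.0.16 in R 4.3.3 (quasi-likelihood F test, two-sided, TMM factors, filterByExpr, 12 libraries with a mean per group, contrast 10000 minus 2000 ng/g), with Benjamini-Hochberg adjustment over 16665 genes at 0.05. A standard error is the size of the log2 fold change over the root of its F value. CPM are scaled by TMM effective library sizes; means of lists use log2 CPM with a prior count of 2. Alternatives were other scaling, no filter, a replicate block, 6 or 9 libraries, DESeq2 1.42.0, a 1.5-fold minimum and leaving out each library; the 6-library fits without 1 library were added after the data were seen. Steps were tested on simulated counts. No 2 libraries of a group were alike within sampling error (lowest chi-square over degrees of freedom, 12.6).

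Genes were named as those past the threshold, the 20 smallest p with at least 5 CPM in the higher group, the member of smallest p (or up to 2 that rose and 2 that fell) per list, and 9 fixed genes; others are marked in the text. The comparison, its members, the gene lists and the named genes were chosen with earlier results of these data known.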

Additional observations from a re-analysis of the deposited data

How the results depend on the processing

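The number of genes called higher at 10000 than at 2000 ng/g was 8, and it stayed between 6 and 9 with RLE factors (8), upper quartile factors (7), no low-count filter (9) and a replicate block (6). It was 2 with library totals only, 0 with a minimum of 1.5-fold (glmTreat), 46 without the 3 libraries at 400 ng/g, 519 with only the 6 libraries compared and 110 with DESeq2. The number called lower was 0, and became 11, 382 and 26 in the last 3 of these. Over fits of the 12 libraries without 1, the counts ran from 0 to 52 higher and from 0 to 27 lower, both highest without 400 ng/g replicate 1. Over the 6-library fits without 1, they ran from 27 to 571 higher and from 5 to 653 lower. The biological coefficient of variation was 17.2% with 6 libraries and 24.1% with 12; the cause of these changes was not tested.

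For the 73 named genes under 27 alternatives, 1674 of 1968 values kept their direction and side of the threshold, 84 no longer passed, 210 passed anew and 0 reversed. For the medians of 60 lists, 1554 values moved by less than the spread between replicates and 66 by more.

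The labels give the groups shared replicate numbers but no shared culture or day. Deviations of same-numbered libraries correlated at -0.095, -0.207 and -0.305, and those of unlike-numbered libraries at up to 0.235. No pairing by number was seen, but these values cannot exclude a shared culture or day. The replicate block called 6 higher and 0 lower, losing clec-17 and pals-6. With 3 libraries a dose, genes of low count (pals-29, ins-16) have wide errors, and intervals cover counting and replicate spread only.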

Other observations

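Body wall muscle genes stood slightly lower at 10000 than at 2000 ng/g. Of 22 tested, 19 had a negative log2 fold change (median -0.19), 11 lay below in all libraries and 0 above, where 12.8% of all genes lay below. Their mean log2 CPM, relative to 2000 ng/g, was -0.08, -0.24 and -0.21 at 10000 ng/g, against 0.07, 0.05 and -0.12 at 2000 ng/g, and it was -0.64 in 400 ng/g replicate 1 and -0.40 in control replicate 3. The troponin T gene mup-2 averaged 546 ± 38.3 CPM at 10000 ng/g and 829 ± 118 CPM at 2000 ng/g (SD, n = 3; log2 fold change -0.60 ± 0.349, edgeR adjusted p = 0.551). Genes for DNA replication and the cell cycle were negative in 30 of 37, with 13 below in all libraries (12.8% of all genes) and 0 above (15.4%). Nuclear hormone receptor genes were more often positive, with 145 of 208 positive (49.3% of all genes) and a median of 0.11. Of the 208, 50 lay above in all libraries (15.4% of all genes) and 8 below (12.8%). Their library means were 0.064, 0.154 and 0.171 at 10000 ng/g, against 0.020, 0.055 and -0.075 at 2000 ng/g. The mean in 400 ng/g replicate 1 was higher than all of these, at 0.324. The heterochronic gene lin-14, a timer of larval stages, had 116, 108 and 108 CPM at 10000 ng/g, against 82.9, 87.1 and 77.4 CPM at 2000 ng/g (log2 fold change 0.42 ± 0.099, edgeR adjusted p = 0.244).

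Further single genes were the metallothionein gene mtl-2, at 88.1, 97.01 and 97.2 CPM at 10000 ng/g, against 63.4, 55.6 and 58.9 CPM at 2000 ng/g (log2 fold change 0.67 ± 0.21, edgeR adjusted p = 0.358 with 12 libraries and 0.00682 with 6), and the mitochondrial chaperone gene hsp-60, at 267, 259 and 246 CPM at 10000 ng/g, against 461, 412 and 348 CPM at 2000 ng/g (log2 fold change -0.66 ± 0.378, edgeR adjusted p = 0.549 with 12 libraries and 0.0138 with 6). In both the groups did not overlap. The spread of hsp-60 outside these doses was wide, with 510.3, 290.4 and 225 CPM in the controls.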
